A study of Homo sapiens with 15 samples.

Results

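The 60 coding genes described here stood highest on day 11 of a cardiac differentiation of human embryonic stem cells. They were chosen by a rule on the deposited counts, scaled to CPM (counts divided by the library's total and multiplied by 1e6). Protein-coding genes with a day 11 mean of at least 5 CPM were ranked by the lowest day 11 library over the highest library of any other day, with 1 CPM added to both, and the top 60 were taken. Of 48777 genes in the table, 18890 were coding genes that the rule admits (4 genes, CRHBP, CGA, CCDC80 and ACTC1, were excepted) and 11720 of these reached the day 11 minimum. In 108 of the 11720, every day 11 library lay above all 12 other libraries. The height on day 11 is therefore what selected these genes, and it is given below as a description with no test.

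The 15 bulk RNA-seq libraries came from H1, an established line of human embryonic stem cells, with 3 biological replicates each on days 0, 4, 9, 11 and 20. All groups were grown on the laminins LN-521 and LN-221, although the deposited sample table lists LN-521 alone for day 0, and no genotype or allele differs between the days. Day 0 cells were undifferentiated. On day 4 the medium was changed to RPMI with B27 lacking insulin and CHIR99021, an inhibitor of the kinase GSK3 that activates Wnt signalling, for 1 day, so that the day 4 libraries were taken on the day this exposure begins. IWP2, which blocks the release of Wnt proteins, was given from day 7 to day 9. A second protocol in the labels places CHIR99021 on days 1 and 3 and IWP2 on day 5, and gives complete B27 from day 11 on, where the first keeps the insulin-free medium. All libraries come from 1 cell line, so the replicates measure at most the spread between cultures of that line. Replicates 1 and 2 of day 20 are labelled plate 2 and plate 2_3, and whether these were separate cultures is not stated.

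Total counts lay between 11990302 and 33469703 per library. Replicate 2 of day 20 stood apart: its RNA integrity number was 6.1, against 8.8 or more elsewhere, and 48230 genes had a count in it, against 30886 to 39551 in the other libraries. Of 252 coding genes that had no more than 2 counts summed over days 0 to 11, 251 had counts there, at a median of 3.05 TPM, the deposited length-adjusted level, and 169 had counts in replicate 3 of day 20, at a median of 0.152 TPM. In replicate 1 of day 20 the median was 0. Levels near 3 TPM in replicate 2 of day 20 are therefore at its background. The 6 cardiomyocyte markers fixed for a check of the label (MYH6, TNNT2, ACTN2, TTN, NKX2-5 and MYL7) summed to 65 to 158 CPM on days 0 and 4, 731 to 1368 CPM on day 9, and 9630, 32617 and 6800 CPM in day 11 replicates 1, 2 and 3. On day 20 the sums were 48832, 46330 and 9183 CPM. Day 11 replicate 2 thus held more than 3 times the marker level of either other day 11 library. Replicate 2 stood at least 3 times above both others for 2 of the 60 genes (3.33%) and for 0.896% of the 11720 coding genes at the day 11 minimum. Because the rule ranked by the lowest day 11 library, a gene high in replicate 2 alone was passed over.

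Cardiomyocytes arise from mesoderm in which Wnt signalling is first active and then blocked. Progenitors at this stage receive and send signals of the fibroblast growth factor, Wnt, bone morphogenetic protein and activin families, and switch on transcription factors of chamber, valve and conduction tissue before the contractile apparatus is complete. Smooth muscle actin is also made by early cardiomyocytes, where it precedes the striated muscle actins.

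Promoter windows of RefSeq (GRCh38.p14, 250 bases before to 50 bases after the gene start) were matched by symbol for 46 of the 60 genes. The stretches of 4 members are shown, each 120 bases long and in the gene's 5′ to 3′ direction. NPY is shown because it leads the ranking, and the others because they are members that hold the GATA-type letters AGATAA. Capitals mark AGATAA on either strand (TTATCT in DGKB), TGANTCA, an AP-1 type sequence, in FST, and CACGTG, an E-box, in DGKB. NPY holds none of the letters searched in the stretch. The NPY stretch is chr7:24284070-24284189 on the plus strand, that of CYSLTR2 chr13:48653679-48653798 on the plus strand, that of FST chr5:53480379-53480498 on the plus strand and that of DGKB chr7:14903657-14903776 on the minus strand.
NPY: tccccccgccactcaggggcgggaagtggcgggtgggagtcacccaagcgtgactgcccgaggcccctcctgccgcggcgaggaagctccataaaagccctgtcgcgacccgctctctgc
CYSLTR2: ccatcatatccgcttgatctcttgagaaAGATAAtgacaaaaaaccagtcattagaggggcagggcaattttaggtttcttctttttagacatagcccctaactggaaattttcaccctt
FST: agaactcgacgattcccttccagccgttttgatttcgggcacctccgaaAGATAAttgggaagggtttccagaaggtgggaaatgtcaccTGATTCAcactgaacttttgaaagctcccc
DGKB: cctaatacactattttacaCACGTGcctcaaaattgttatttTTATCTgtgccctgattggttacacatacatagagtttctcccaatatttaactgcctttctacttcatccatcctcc
The NPY and DGKB stretches end 1 base before the RefSeq start, and the stretches of CYSLTR2 and FST run from 250 to 131 bases before it.

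Searched on both strands of the full 300-base windows, AGATAA was held by 4 of the 46 members (8.70%: CYSLTR2, DGKB, FST and KLF12) and by 7.31% of 14902 coding genes. CATTCC, the TEAD-type sequence, was held by 7 members (15.2%) against 11.6%, and CAGCTG by 8 members (17.4%) against 17.7%. TATAAA was held by 3 members (6.52%) against 9.24%, CACGTG by 3 (6.52%) against 8.88%, and TGANTCA by 2 (4.35%) against 5.62%. TGACGTCA, TTAAGTG, the CArG box and the MEF2 box were held by 0 members, against 2.67%, 1.87%, 1.23% and 2.09% of coding genes. The shares of the members lay close to those of all coding genes for each motif, and nothing about the factors follows from these letters.

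Secreted proteins made up 10 of the 60 genes. Levels are given in TPM, which allows for gene length, in the order of replicates 1, 2 and 3, and ratios between days are ratios of mean CPM. NPY, neuropeptide Y, is a peptide transmitter of sympathetic nerves. It stood at 185, 1525 and 329 TPM on day 11. On day 9 it stood at 37.1, 44.3 and 56.0 TPM, and on day 20 at 9.62, 18.0 and 29.5 TPM. Days 0 and 4 lay between 1.97 and 7.05 TPM, so that NPY was low, rose to day 9, and was highest by far on day 11. The day 11 mean was 13.9 times that of day 9 and 38.0 times that of day 20, and the day 11 replicates themselves spread 8.02-fold in CPM, with replicate 2 far above the others.

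FGF8, a fibroblast growth factor needed for heart and outflow tract development, stood at 58.9, 192 and 40.4 TPM on day 11. Its level was 7.36, 3.39 and 10.8 TPM on day 9 and 7.23, 15.6 and 2.56 TPM on day 20. Days 0 and 4 held 2.02 to 5.74 TPM, so that 4 of the days overlapped and day 11 lay above them all. The ratio of day 11 to day 9 was 12.6, and that to day 20 was 12.2, or 22.0 without replicate 2 of day 20.

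WNT2, a Wnt ligand expressed in early cardiac mesoderm, was near 0 on days 0 and 4, with 2 counts or fewer in each library. On day 9 it had 9, 13 and 2 counts, or 0.606, 0.792 and 0.0900 TPM. It reached 23, 51.2 and 55.9 TPM on day 11 and stood at 5.95, 7.55 and 10.3 TPM on day 20. Days 9, 11 and 20 did not overlap, and day 20 lay between the other two. The day 11 mean was 80.9 times the day 9 mean, on few day 9 counts, and 5.81 times the day 20 mean. WNT11, a Wnt ligand that acts mainly outside the β-catenin pathway and is used in cardiac specification, followed a flatter course. It stood at 0.501 to 1.62 TPM on days 0 and 4, at 18.9, 27.8 and 18.5 TPM on day 9, at 65.3, 74.8 and 56.7 TPM on day 11, and at 38.4, 19.5 and 41.5 TPM on day 20. Days 9 and 20 overlapped. Exons of WNT2 share bases with CFTR on the other strand, and exons of WNT11 with an unnamed gene on the other strand. Whether the counting used strand is not stated.

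FST, follistatin, binds and blocks activins. Unlike the ligands above it was already high in undifferentiated cells, at 80.1, 40.4 and 60.6 TPM on day 0 and 83.7, 88.1 and 66.8 TPM on day 4. It dropped to 15.5, 37.9 and 25.1 TPM on day 9, stood at 109.5, 145 and 143 TPM on day 11, and at 22.6, 22.3 and 70.6 TPM on day 20. The day 9 libraries lay below every library of days 0, 4 and 11, so the course had a trough before its top. LPL, lipoprotein lipase, had no such trough that cleared the spread: it stood at 2.54 to 6.10 TPM on days 0 and 4 and at 1.16, 7.85 and 1.14 TPM on day 9. It reached 20.4, 19.9 and 25.3 TPM on day 11 and stood at 3.82, 8.15 and 1.33 TPM on day 20. Replicate numbers do not link the days: the high day 9 library was of plate 6 and the high day 20 library of plate 2_3. OIT3, a protein known from liver, rose from at most 0.366 TPM on days 0 and 4 to 1.80, 4.03 and 1.37 TPM on day 9. Its level was 30.6, 106 and 77.7 TPM on day 11 and 24.2, 11.5 and 16.1 TPM on day 20, and days 9, 11 and 20 did not overlap. The ratio of day 11 to day 9 was 28.2.

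The other secreted members were lower or changed less. LGALS2, a galectin, stood at 45.5, 28.6 and 46.1 TPM on day 11 and F7, coagulation factor VII, at 7.68, 8.42 and 7.87 TPM. The day 9 levels were 10.3, 23 and 10.3 TPM for LGALS2 and 5.44, 5.79 and 4.35 TPM for F7. SPOCK2, an extracellular proteoglycan, stood at 10.3, 12.8 and 10.9 TPM on day 11 and at 10.7 TPM in replicate 1 of day 20. Its days therefore touched in TPM, although they did not in the CPM that the rule used. In TPM, every day 11 library lay above every other library for 59 of the 60 genes. The TPM come from the same counts, so the rule largely set this in advance. The share over all coding genes was not counted in TPM.

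**Figure D1:**
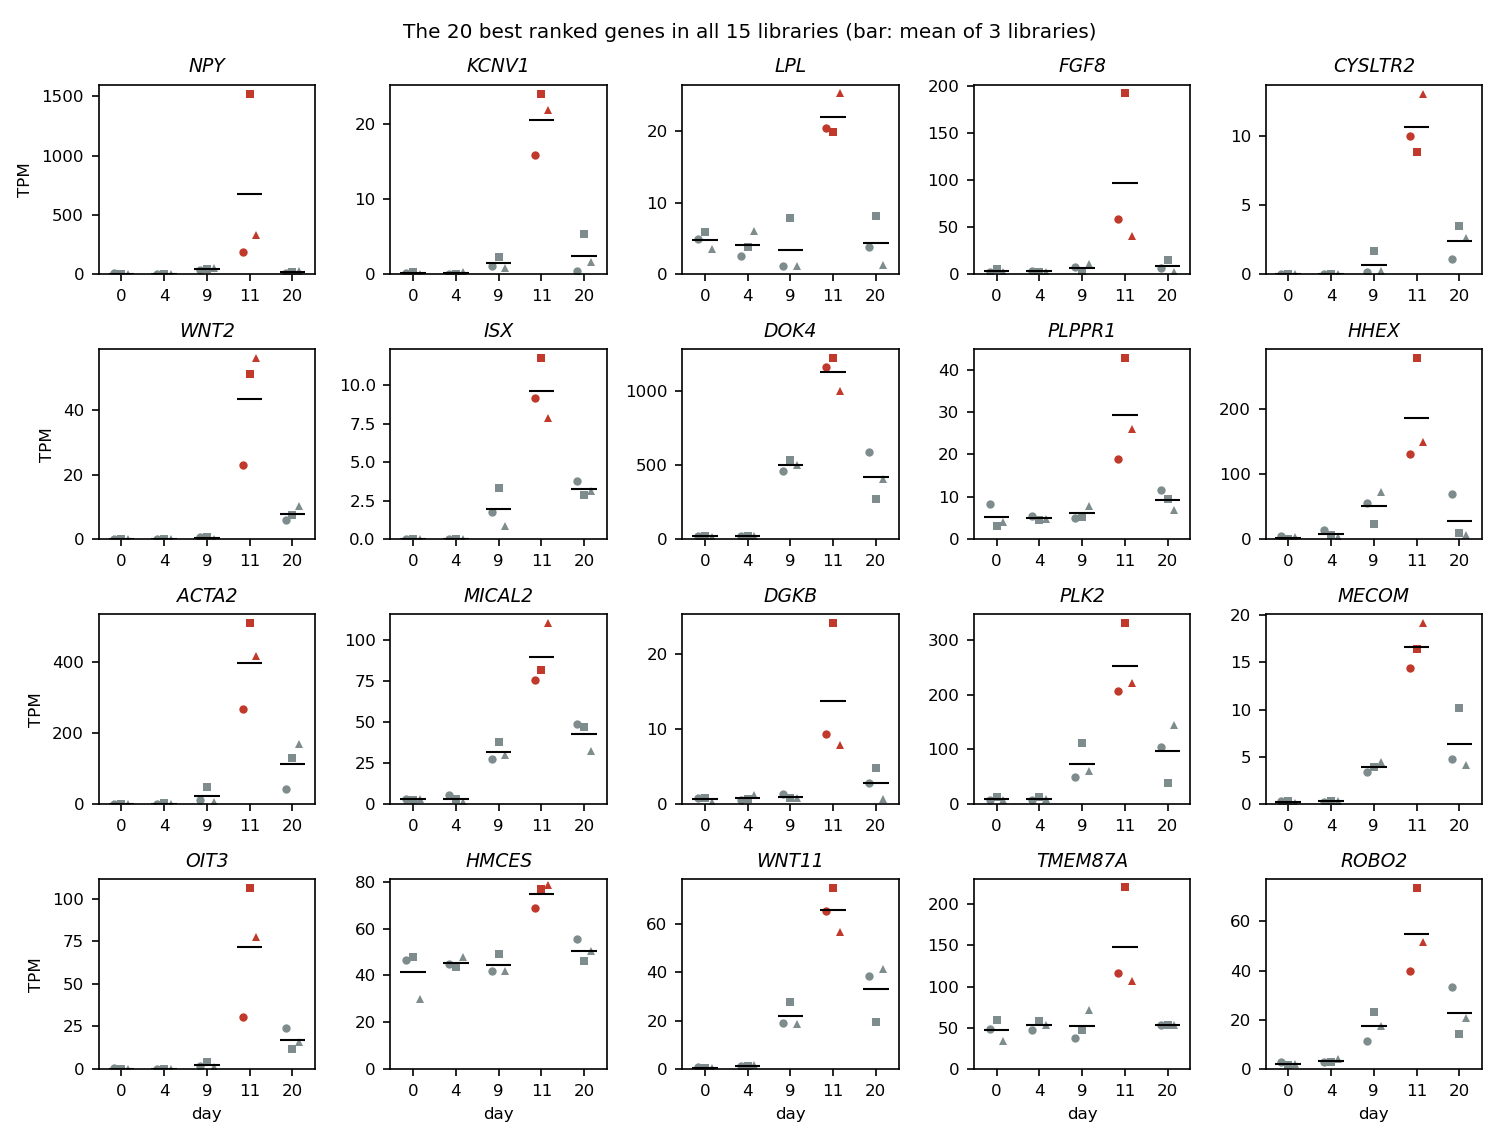
TPM of the 20 best ranked genes in each library by day (circles, squares and triangles are replicates 1, 2 and 3, red marks day 11, and the bar is the mean of 3 libraries), each panel with its own axis from 0. Day 11 lies above the other days in every panel, because the genes were selected on this, and replicate 2 stands far above the other day 11 libraries for NPY (1525 against 185 and 329 TPM), FGF8 and DGKB.

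Among 9 receptors and adaptors, CYSLTR2, a receptor for cysteinyl leukotrienes that is known from heart and vessels, had 0 or 1 count in each library of days 0 and 4. It stood at 0.188, 1.67 and 0.252 TPM on day 9, at 9.96, 8.78 and 13.0 TPM on day 11 and at 1.11, 3.46 and 2.63 TPM on day 20. Days 9 and 20 overlapped, and both lay well under day 11. DOK4, an adaptor that docks to receptor tyrosine kinases, was the most abundant of the 60 genes on day 11, at 1161, 1217 and 997 TPM. It stood at 16.8 to 24.8 TPM on days 0 and 4, at 460.0, 535 and 501 TPM on day 9 and at 585, 268 and 402 TPM on day 20. The rise before day 9 was thus larger in ratio than that from day 9 to day 11, which was 2.12. DOK6, of the same adaptor family, held 0.192 to 0.576 TPM on days 0 and 4 and 6.10, 9.69 and 6.83 TPM on day 9. Its level was 18.3, 19.2 and 13.4 TPM on day 11 and 4.24, 5.27 and 3.92 TPM on day 20, with no overlap between days 9, 11 and 20.

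PLPPR1, a membrane protein related to lipid phosphate phosphatases, stayed at 3.21 to 8.33 TPM from day 0 to day 9. It stood at 18.9, 42.8 and 26.1 TPM on day 11 and at 11.6, 9.52 and 6.92 TPM on day 20. ROBO2, a receptor for Slit ligands, stood at 11.4, 23.3 and 17.5 TPM on day 9, 39.9, 73.5 and 51.7 TPM on day 11 and 33.4, 14.2 and 20.9 TPM on day 20. ADGRG6, an adhesion G protein-coupled receptor required for heart development in mice, stood at 17.3, 30.0 and 28.7 TPM on day 9, 67.8, 161 and 62.3 TPM on day 11 and 51.6, 20.5 and 27.0 TPM on day 20. In ROBO2 and ADGRG6, days 9 and 20 overlapped.

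BAMBI, a decoy receptor that dampens bone morphogenetic protein and transforming growth factor β signals, was the second most abundant member on day 11 by mean, at 829.9, 1287 and 802 TPM. It stood at 407, 690.1 and 501 TPM on day 9 and at 266, 225 and 357 TPM on day 20, and each of those days lay clear of the others. IRS1, the insulin receptor substrate, stood at 52.8, 96.5 and 44.7 TPM on day 9, 120.0, 110.1 and 148 TPM on day 11 and 90.6, 39.9 and 61.2 TPM on day 20. FAT4, a large cadherin, stood at 12.7, 16.7 and 12.8 TPM on day 11 and at 4.92 to 11.7 TPM in the other libraries.

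Of 6 kinases and related signalling genes, DGKB, a diacylglycerol kinase, was the best ranked. It stayed at 0.326 to 1.37 TPM up to day 9, stood at 9.30, 24.0 and 7.81 TPM on day 11 and at 2.85, 4.84 and 0.710 TPM on day 20. PLK2, a polo-like kinase, stood at 6.81 to 13.5 TPM on days 0 and 4, 50.4, 112 and 60 TPM on day 9, 207, 331 and 222 TPM on day 11 and 105, 39.1 and 145 TPM on day 20. Days 9 and 20 overlapped for both genes. DOCK8, an exchange factor for CDC42, was low throughout, with 6.41, 6.68 and 6.47 TPM on day 11 and 1.93, 5.27 and 1.06 TPM on day 20, where the high library was replicate 2. PLEKHO1, a protein that binds casein kinase 2, stood at 50, 56.4 and 51.8 TPM on day 11, against 25.7 to 39.2 TPM on days 9 and 20. MAP3K3 and MAP3K11, kinases at the head of MAP kinase cascades, were near the lower end of the ranking, and their day 11 means were 1.39 and 1.22 times those of day 9.

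The 4 channels and transporters had ratios of day 11 to day 9 from 2.44 (SLCO2A1) to 29.1 (KCNIP2), beside a median of 2.13 over the 60 genes. KCNV1, a potassium channel subunit that is silent alone and modifies other subunits, stood at 0.0692 to 0.258 TPM on days 0 and 4 and 1.07, 2.36 and 0.911 TPM on day 9. Its level was 15.9, 24.1 and 21.9 TPM on day 11 and 0.415, 5.37 and 1.61 TPM on day 20. The ratio of day 11 to day 20 was 8.74, and 21.9 without replicate 2 of day 20. KCNIP2, the subunit that sets the transient outward potassium current of the ventricle, was lower on day 9 (1.91, 1.95 and 1.48 TPM) than on days 0 and 4 (2.48 to 4.03 TPM). It stood at 45.6, 80.9 and 40.0 TPM on day 11 and at 33.5, 15.3 and 5.39 TPM on day 20, which gave a ratio of 29.1 over day 9 and 3.35 over day 20. SLC10A4, a vesicle transporter, stood at 8.86, 21.8 and 14 TPM on day 11 and at 0.360, 4.98 and 0.251 TPM on day 20. Its ratio of day 11 to day 20 rose from 8.30 to 53.5 without replicate 2 of day 20. SLCO2A1, a prostaglandin transporter, stood at 17.0, 39.1 and 14.2 TPM on day 11 and at 8.28 to 9.96 TPM on day 9.

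Leaving out replicate 2 of day 20 moved the ratio of day 11 to day 20 by more than 1.5 times for 6 of the 60 genes, and it rose in each: KCNV1, LPL (5.23 to 9.38), FGF8, DGKB (5.23 to 8.56), SLC10A4 and DOCK8 (2.51 to 4.81). For all 60 genes the median ratio was 2.42 with all libraries and 2.29 without that one. The median ratio of day 11 to day 9 was 2.13, with a range from 1.22 for MAP3K11 to 80.9 for WNT2.

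**Figure D2:**
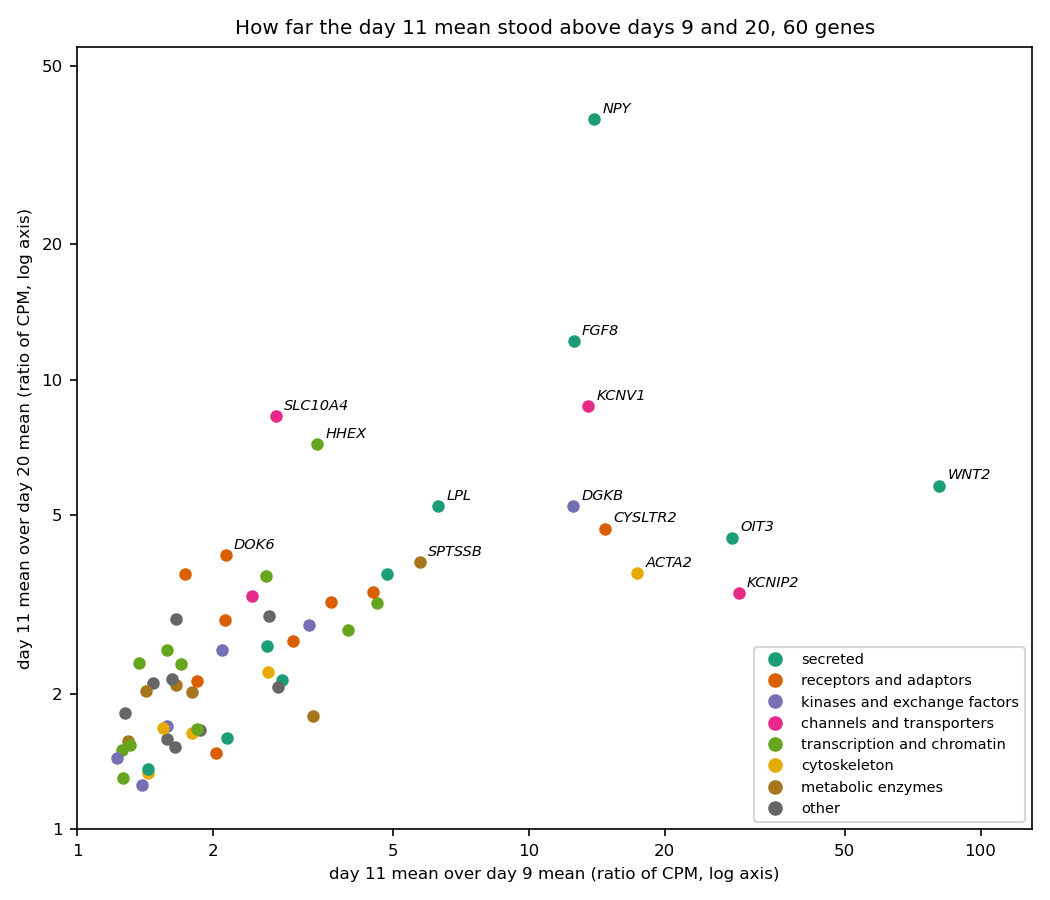
Mean CPM of day 11 over that of day 9 (x, log axis) and over that of day 20 (y, log axis) for each of the 60 genes, coloured by role and named where a ratio is large. NPY stands 38.0 times above day 20, WNT2 80.9 times above day 9, and most of the 60 lie under 3 on both axes.

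Transcription and chromatin genes made up 11 of the 60. ISX, an intestine-specific homeobox factor, had 0 or 1 count per library on days 0 and 4. It stood at 1.73, 3.30 and 0.880 TPM on day 9, at 9.17, 11.7 and 7.88 TPM on day 11 and at 3.76, 2.86 and 3.12 TPM on day 20. HHEX, a homeobox factor of liver, thyroid and blood vessel precursors, stood at 55.6, 23.4 and 72.3 TPM on day 9, at 130.3, 277 and 149 TPM on day 11 and at 69.3, 9.59 and 6.85 TPM on day 20, so that replicate 1 alone carried the day 20 level into the day 9 range. MECOM, a zinc finger factor of blood stem cells and endothelium, stood at 3.36, 3.96 and 4.5 TPM on day 9, at 14.4, 16.4 and 19.1 TPM on day 11 and at 4.83, 10.2 and 4.12 TPM on day 20.

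TBX2, the only member that stood on the list of 25 cardiac transcription factors, represses chamber genes in the atrioventricular canal and outflow tract. It was near 0 on days 0 and 4 (1 to 5 counts per library), stood at 41.7, 24.9 and 47.7 TPM on day 9, at 66.6, 67.1 and 61.3 TPM on day 11 and at 29.3, 27.9 and 26.6 TPM on day 20. The 3 day 11 libraries lay close together. ZBTB16, a zinc finger repressor, rose from at most 0.280 TPM on days 0 and 4 to 6.04, 8.22 and 6.43 TPM on day 9, and stood at 10.7, 15 and 11.5 TPM on day 11. ETV5, an ETS factor that acts as a readout of fibroblast growth factor signalling, stood at 23.6, 24.4 and 32.7 TPM on day 9, at 52.8, 131 and 41.3 TPM on day 11 and at 28.9, 16.8 and 20.9 TPM on day 20. Replicate 2 stood more than 2 times above either other day 11 library.

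The remaining 5 of this group had smaller steps on day 11. KLF12, a repressor of the Krüppel-like family, stood at 36.1, 56.4 and 30.1 TPM on day 11, against 18.0 to 27.7 TPM on days 9 and 20. MAML3, a coactivator of Notch receptors, stood at 46.0, 46.1 and 60.7 TPM on day 11 and 20.0 to 36.0 TPM on days 9 and 20. HIF1A, the oxygen-regulated factor, stood at 289, 339 and 301 TPM on day 11 and at 135 to 264 TPM in all other libraries. TNRC18 and MBD1, both chromatin proteins, had day 11 means of 1.26 and 1.31 times those of day 9. TNRC18 was among the genes with the smallest distance to the other days, at 75.8, 91.6 and 77.3 TPM on day 11 against 60.8 to 71.4 TPM on day 20.

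Of the 5 cytoskeletal genes, ACTA2, smooth muscle α-actin, stood out. It held 0.477 to 2.00 TPM on days 0 and 4 and 12.1, 49.3 and 4.83 TPM on day 9. It reached 269, 509.9 and 417 TPM on day 11 and stood at 42.6, 129.8 and 169 TPM on day 20. The ratio of day 11 to day 9 was 17.4 and that to day 20 was 3.71. ACTA2 was the 1 of 6 smooth muscle markers that is a member, and the other 5 markers (TAGLN, CNN1, MYH11, SMTN and LMOD1) are taken up below. MICAL2, an actin-oxidising enzyme that promotes serum response factor activity, stood at 27.5, 37.6 and 29.9 TPM on day 9, at 75.8, 81.9 and 110.0 TPM on day 11 and at 48.6, 47.2 and 32.3 TPM on day 20. ARPC5, of the Arp2/3 complex, CSPP1, of centrosomes and cilia, and KANK1, an adhesion scaffold, had ratios of 1.43, 1.79 and 1.55 over day 9.

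The 6 metabolic enzymes had day 11 means between 14.2 and 234 TPM. SPTSSB, a small subunit of serine palmitoyltransferase, stood at 3.24, 3.52 and 3.54 TPM on day 9, at 13.0, 25.5 and 24.9 TPM on day 11 and at 9.50, 4.70 and 3.24 TPM on day 20. MVK, mevalonate kinase of the sterol pathway, stood at 7.04, 9.36 and 8.74 TPM on day 9, at 23.2, 34.5 and 31.5 TPM on day 11 and at 16.2, 21.8 and 15.3 TPM on day 20. In MVK those 3 days did not overlap. HSD17B11 (a short-chain dehydrogenase of lipid droplets), GSTO1 (a glutathione transferase), PAOX (a polyamine oxidase) and GANC (an α-glucosidase) had ratios of 1.65, 1.42, 1.30 and 1.79 over day 9.

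The other 9 genes had no role in common. HMCES, which shields abasic sites in DNA, stood at 68.8, 76.8 and 78.7 TPM on day 11 and at 30.0 to 55.5 TPM in the other 12 libraries, with no trend among those. TMEM87A, a Golgi membrane protein, stood at 117, 220.9 and 107 TPM on day 11 and at 34.5 to 72.0 TPM elsewhere. GANC and TMEM87A overlap by 333 bases on opposite strands of chromosome 15. SNPH (a mitochondrial anchor), CASTOR2 (of the CASTOR arginine sensors), MMD, TMEM200B, TRNAU1AP (of selenocysteine tRNA), ATG2A (a lipid transfer protein of autophagy) and GTPBP8 had ratios of day 11 to day 9 from 1.28 to 2.79. If the counting did not use strand, reads from exon bases on opposite strands cannot be told apart. Of the 60 genes, 29 share exon bases with another annotated gene (25 on the opposite strand, 8 on the same). The share over all coding genes was not counted, so these counts do not show whether the 60 differ from other coding genes.

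At the lower edge of the rule, rank 60 was MAP3K11 with a ratio of 1.09. Ranks 61, 62 and 63 were TMEM98 (1.08), FLRT2 (1.07) and PPP6R2 (1.06), just outside. The ratios of the 60 ran from 1.09 to 3.12 with a median of 1.23, so that many of them stood little above the highest other library.

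Which other day came next was divided evenly. The highest library outside day 11 belonged to day 9 for 27 genes, to day 20 for 27, to day 0 for 3 and to day 4 for 3. It was replicate 2 of day 20, the library of low RNA integrity, for 10 genes: KCNV1, FGF8, CYSLTR2, MICAL2, DGKB, MECOM, DOCK8, GANC, MVK and CSPP1. The day 11 mean was at least 2 times the highest mean of another day for 29 genes and at least 5 times for 5 genes. Together the 60 genes took 0.124% to 0.134% of the counts on days 0 and 4, 0.341% to 0.384% on day 9, 0.671%, 0.893% and 0.683% on day 11 and 0.279% to 0.341% on day 20. In bulk RNA, fewer cells of a type and less RNA per cell cannot be told apart.

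Within day 11, replicate 2 (plate 5) was the highest library for 42 of the 60 genes (70.0%) and for 30.7% of the 11720 coding genes at the day 11 minimum. It was at least 2 times both other libraries for 6 members (NPY, FGF8, DGKB, ADGRG6, ETV5 and SLCO2A1; 10.0%) and for 2.82% of those coding genes. It was at least 1.5 times both for 14 members (23.3%), against 6.95%. By role, replicate 2 was highest for 4 of 4 channels and transporters, 5 of 6 kinases and exchange factors, 5 of 6 metabolic enzymes, 4 of 5 cytoskeleton genes, 7 of 9 receptors and adaptors, 7 of 10 secreted proteins, 7 of 11 transcription and chromatin genes and 3 of 9 other genes. Cardiomyocyte markers stood at 32617 CPM in this library and at 9630 and 6800 CPM in the others, and their part in the members' levels was not tested. On day 20, replicate 1, with 48832 CPM of the markers, lay above replicate 3, with 9183 CPM, for 37 of the 60 genes (61.7%) and for 48.0% of the coding genes. Replicate 2 of day 20, of low RNA integrity, had 46330 CPM of the markers. It was the highest of day 20 for 21 of the 60 genes (35%) and for 45.4% of the coding genes. Without day 11 replicate 2 the same rule kept 35 of the 60 genes, and without replicate 3 also 35.

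**Figure D3:**
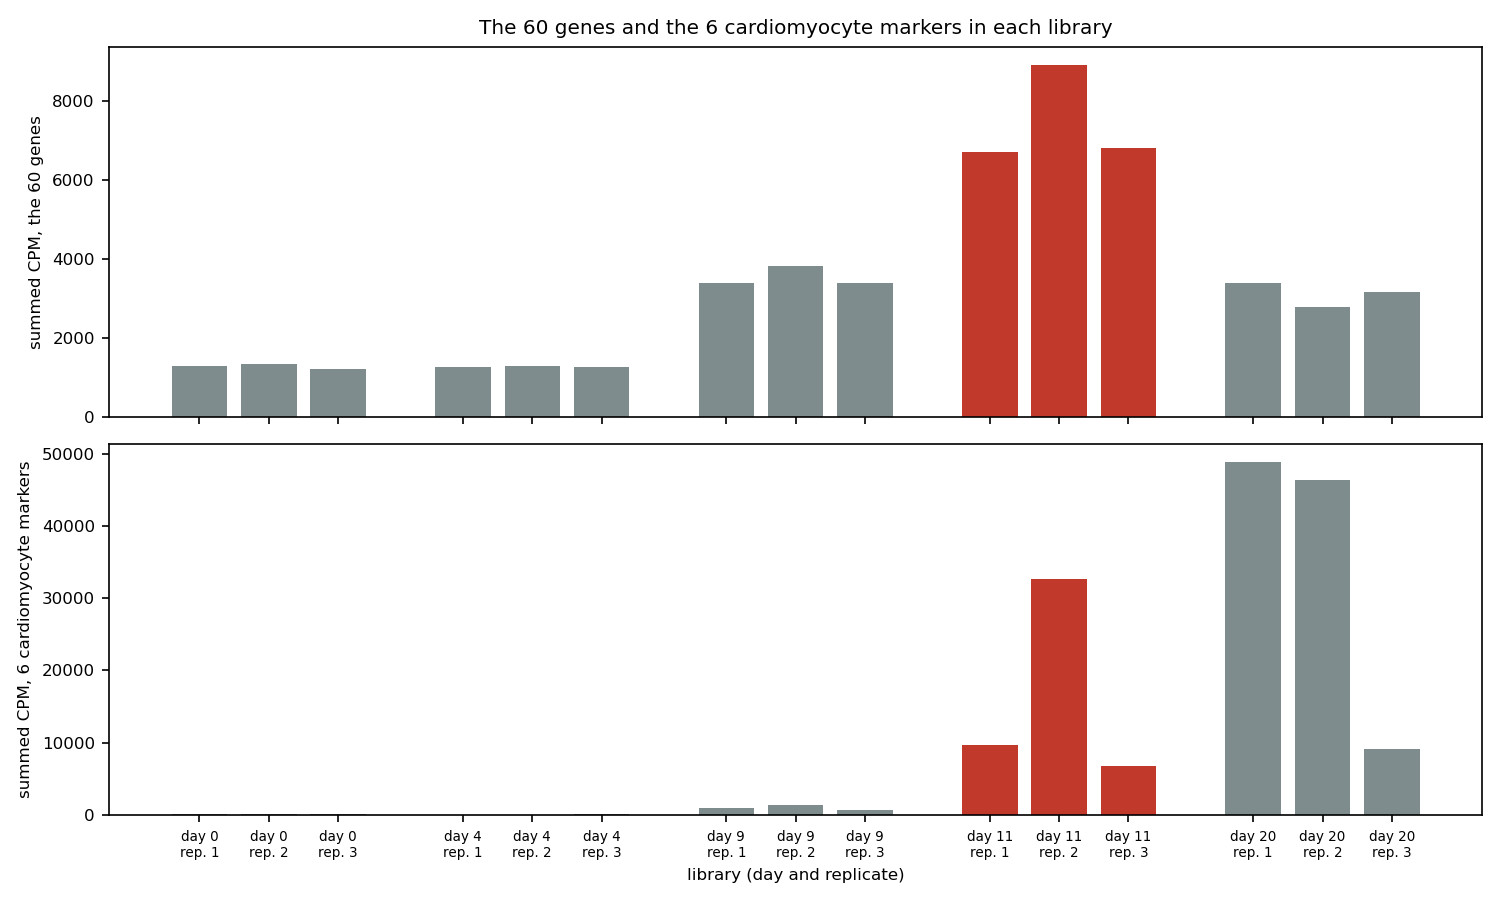
Summed CPM of the 60 genes (upper panel) and of the 6 cardiomyocyte markers (lower panel) in each of the 15 libraries, day 11 in red, both axes from 0. The 60 genes sum to 8930 CPM in day 11 replicate 2 and to 6712 and 6830 CPM in the others. The markers sum to 32617, 9630 and 6800 CPM in the same libraries, and on day 20 they are high in replicates 1 and 2. The rule ranked the 60 genes by their lowest day 11 library and held them lower in every day 20 library. Their course beside that of the markers is therefore a description with no test.

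The comparisons below leave day 11 out. The rule set only an upper limit on the libraries of days 0, 4, 9 and 20 and did not order these days. Changes among them were tested gene by gene, with edgeR's quasi-likelihood test over all genes and Benjamini-Hochberg adjustment at 0.05. That limit still left out genes as high on day 9 or day 20 as on day 11, and days 0 and 4 had no minimum. Shares over all genes are for genes not selected in this way, and the difference of the 60 from them was not tested. The 60 genes are not independent of one another, and a gene without a reading in a comparison (under the count filter) is counted as not tested.

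From day 4 to day 9, the 60 genes mostly rose. Of the 58 tested (WNT2 and CYSLTR2 had too few counts), 37 passed the threshold upward and 4 downward, with 17 short of it. Among all 21252 genes tested, 24.3% passed upward and 24.7% downward. The median log2 fold change was 1.20 over the 58 and 0.01 over all genes. All 11 transcription and chromatin genes rose, most of all TBX2 (log2 fold change 8.60, standard error 0.43, edgeR adjusted p = 6.96e-06), which went from 3 to 5 counts per library to between 820 and 2124. ISX rose by a log2 fold change of 6.58 (standard error 0.86), ZBTB16 by 5.86 (0.51), TNRC18 by 4.83 (0.16), and MECOM by 3.71 (0.23). The values were 2.66 for HHEX, 2.51 for MAML3, 2.30 for ETV5, 1.46 for KLF12 and 0.82 for MBD1. HIF1A had the smallest rise of the group, 0.34 (standard error 0.12, edgeR adjusted p = 0.0458), and its call held in 4 of 9 other settings that kept every library.

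Of the signalling members, DOK4 (log2 fold change 4.45, standard error 0.14) and DOK6 (4.33, standard error 0.29) rose the most among the adaptors, and BAMBI (3.57), ROBO2 (2.41), ADGRG6 (2.17) and IRS1 (1.66) rose as well. LGALS2 (5.05), WNT11 (3.92), OIT3 (3.77) and NPY (3.66) led the secreted proteins, with F7 (1.53) and FGF8 (1.25) behind. KCNV1 (3.45), SLCO2A1 (2.22), SLC10A4 (1.08), DOCK8 (3.06), PLK2 (2.94), PLEKHO1 (1.12), ACTA2 (3.91), MICAL2 (3.23) and KANK1 (1.33) rose among channels, signalling and cytoskeletal genes. GSTO1 (1.48), HSD17B11 (1.15), PAOX (0.48), TMEM200B (1.13) and MMD (0.44) rose among the enzymes and the mixed group. The 4 that fell were FST (−1.61, standard error 0.26, edgeR adjusted p = 0.00164), KCNIP2 (−1.11, standard error 0.22), SPTSSB (−0.80, standard error 0.21) and ATG2A (−0.31, standard error 0.11), whose call held in 2 of the 9 other settings. FST, KCNIP2 and SPTSSB each had the lowest mean of the 5 days on day 9. In the genes that did not pass, including LPL, PLPPR1, DGKB, HMCES and TMEM87A, the log2 fold change lay between −0.38 and 0.34.

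**Figure D4:**
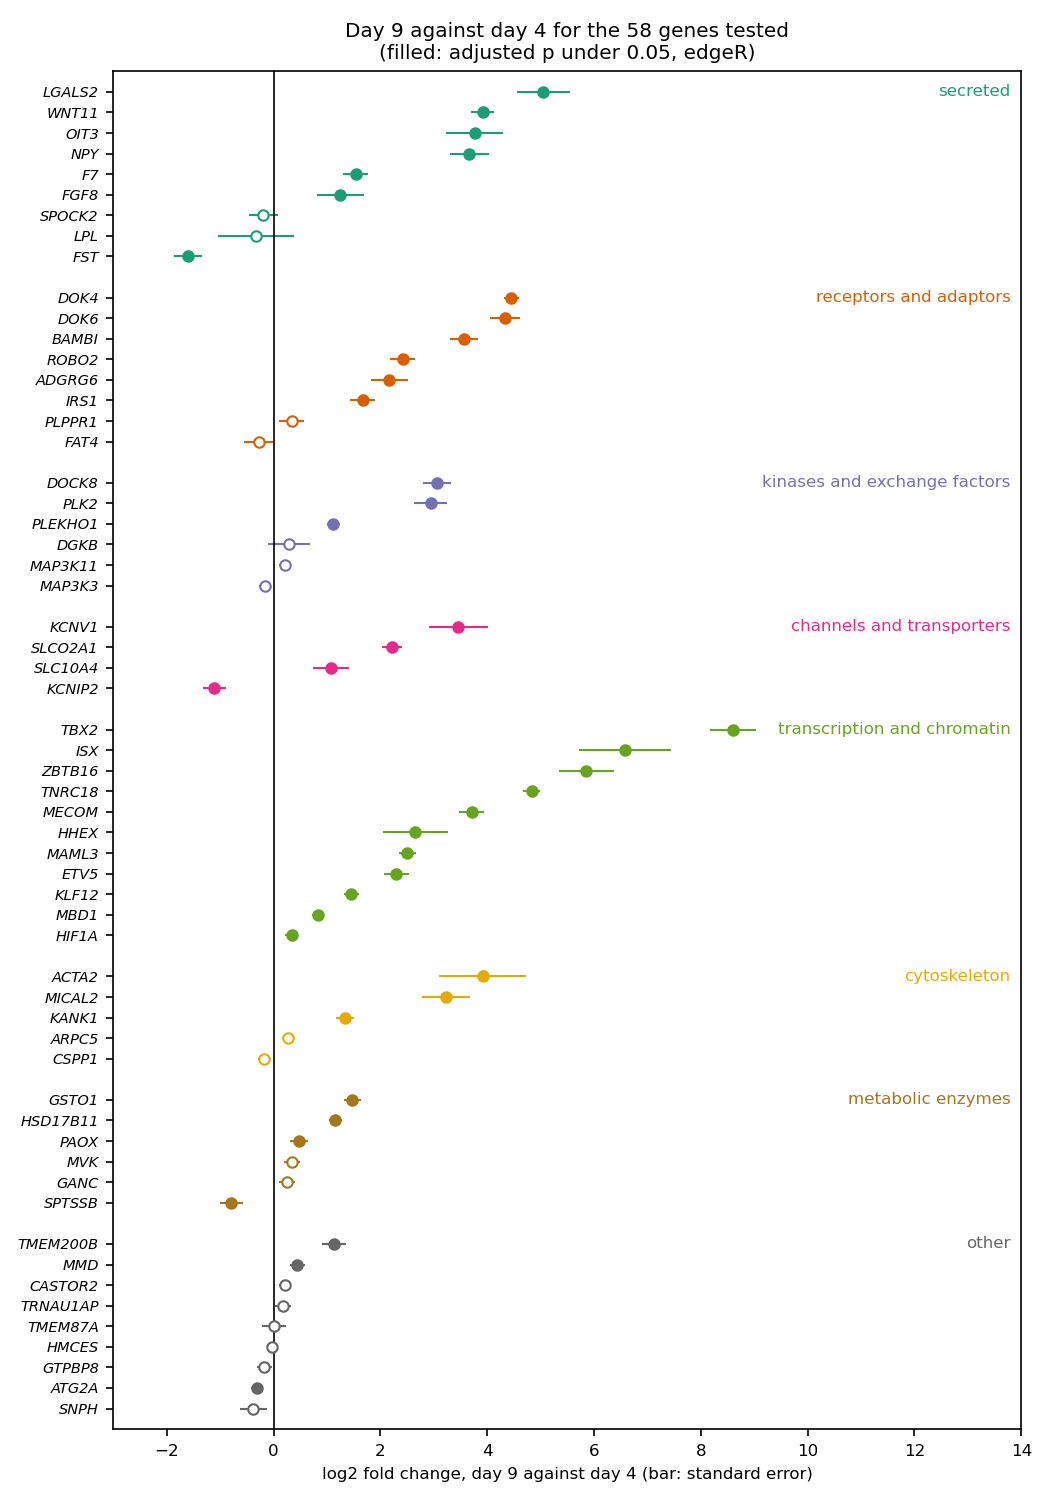
Log2 fold change of day 9 against day 4 with its standard error for the 58 members tested, grouped by role (filled circles passed an adjusted p of 0.05 in edgeR). All 11 transcription and chromatin genes lie to the right of 0, with TBX2 at 8.60, while the mixed group lies around 0.

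Between day 9 and day 20, days on either side of the top, few of the 60 genes differed. All 60 were tested: 4 were higher on day 20, 1 was lower, and 55 did not pass. Over all 21207 genes, 6.72% were higher and 3.31% lower, so that the members' counts are close to the background. WNT2 (log2 fold change 3.87, standard error 0.75, edgeR adjusted p = 0.0220), KCNIP2 (3.20, standard error 0.67, edgeR adjusted p = 0.0292), OIT3 (2.76, standard error 0.55, edgeR adjusted p = 0.0248) and MVK (0.89, standard error 0.21, edgeR adjusted p = 0.0378) were above day 9, while DOK6 was below it (−0.93, standard error 0.24, edgeR adjusted p = 0.0494). The median over the 60 was 0.08 and over all genes 0.10. NPY (−1.43, standard error 0.46, edgeR adjusted p = 0.0973), BAMBI (−1.04, standard error 0.35) and SLC10A4 (−1.86, standard error 0.99) did not pass. Leaving out any 1 of the day 9 libraries left 0 of the 5 calls and of the 60 genes past the threshold in edgeR, although 7, 9 and 6 members had an unadjusted p under 0.05. Leaving out replicates 1, 2 and 3 of day 20 gave 3, 8 and 2 calls, so the 5 calls rest on every day 9 library.

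Against undifferentiated cells, day 20 stood higher for 28 of the 60 genes and lower for 0, with 32 that did not pass (edgeR, with 1 gene lower at an unadjusted p under 0.05, and 31 higher and 0 lower in DESeq2). Among all 21988 genes, 16.1% were higher and 11.3% lower, and the median log2 fold change was 1.35 over the 60 and 0.11 over all. The 28 included TBX2 (8.69, standard error 0.59, edgeR adjusted p = 0.000192), WNT2 (7.40, standard error 0.95, edgeR adjusted p = 0.0015), ISX (7.06, standard error 0.93), ACTA2 (7.05, standard error 0.68), CYSLTR2 (6.34, standard error 0.97) and OIT3 (6.05, standard error 0.78). WNT11 (5.50), ZBTB16 (5.44), TNRC18 (4.96), LGALS2 (4.61), MECOM (4.16), DOK4 (4.15), MICAL2 (3.54), KCNV1 (3.45), DOK6 (3.29), PLK2 (3.20), ROBO2 (3.17), BAMBI (2.88), SLCO2A1 (2.39), DOCK8 (2.34), KCNIP2 (2.28), ADGRG6 (2.02), F7 (1.86), GSTO1 (1.63), MAML3 (1.59), IRS1 (1.37), KLF12 (1.32) and KANK1 (1.07) completed them. NPY (1.60, standard error 0.57, edgeR adjusted p = 0.0707) and FGF8 (1.00, standard error 0.71, edgeR adjusted p = 0.335) did not pass, nor did FST (−0.83, standard error 0.55). Day 0 replicates 1 or 3 left out gave 18 calls each, and replicate 2 of day 20 left out gave 37.

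The 7 lists of other genes in these pathways were read without the 4 members on them (TBX2 among cardiac transcription factors, and WNT2, WNT11 and FGF8 among secreted ligands). Over all 20679 genes tested, 1.39% were higher on day 11 than on day 9 and 1% lower. Of 28 sarcomere genes tested, 21 were higher, led by MYH6 (log2 fold change 8.09, standard error 0.87), MYBPC3 (7.67) and MYO18B (7.38). Of 22 calcium handling and channel genes, 3 were higher: SLC8A1 (5.63), CACNA1D (3.96) and CACNA1C (2.16). Of 23 other cardiac transcription factors, NKX2-5 (3.79), MEF2C (2.17) and MEF2A (0.83) were higher, and of 45 other secreted ligands and antagonists 5 were higher, led by ANGPT1 (5.82), TGFB3 (3.38) and DKK1 (2.39, a Wnt antagonist). Among retinoid response genes ALDH1A1 (5.23) was higher and CYP26A1 (−3.31) lower. DESeq2 called 24 sarcomere genes and 9 calcium handling and channel genes higher. It called 8 cardiac transcription factors higher and 4 lower, 10 secreted genes higher and 3 lower, and 1 retinoid gene higher and 5 lower. Of 20 immediate early and cAMP response genes and of 16 sterol and insulin response genes, the latter the pathway of MVK and IRS1, 0 passed in edgeR, with medians of 0.46 and 0.03. At an unadjusted p under 0.05 these lists had 4 and 3 genes, and DESeq2 called 3 and 1.

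From day 11 to day 20, over all 21398 genes, 1.12% were higher and 0.435% lower. Of 31 sarcomere genes, 3 passed upward in edgeR: MYL2 (log2 fold change 9.42), MYH7 (5.37) and MYOZ2 (3.80). The median log2 fold change of the 31 was 1.61, with 16 at an unadjusted p under 0.05, and DESeq2 called 11 higher. Of 24 calcium handling genes, 0 passed in edgeR (10 at an unadjusted p under 0.05, and 6 in DESeq2). In edgeR, IRX4 (3.94) and HEY2 (2.87) rose and ISL1 (−1.71) fell among 23 cardiac transcription factors, and DESeq2 called 4 higher and 4 lower. FGF18 (4.59) and INHBA (2.72, an activin subunit, the ligand that FST binds) rose and SFRP5 (−2.33) fell among 47 secreted factors. CYP26B1 (3.20) rose among 16 retinoid response genes and PCK1 (4.61) among 18 sterol and insulin response genes. DESeq2 called 8 secreted factors higher and 4 lower, 3 retinoid genes higher and 2 lower, and 3 sterol and insulin genes higher. Sarcomere sums stood at 15510, 43008 and 12415 CPM on day 11 and 65308, 65788 and 15287 CPM on day 20. As a group these genes thus did not share the lower day 20 level by which the 60 were selected. Without day 9 replicate 1, 0 of 253 listed genes passed day 11 against day 9 in edgeR (101 at an unadjusted p under 0.05), without day 9 replicate 3 there were 4, and without day 11 replicate 1 there were 22. Day 20 against day 11 gave 0 without any 1 of the day 11 libraries (67, 95 and 80 at an unadjusted p under 0.05) and 7 without day 20 replicate 1.

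The marker lists of other cell types were read in the same way. Of 5 smooth muscle markers besides ACTA2, LMOD1 (log2 fold change 3.07), MYH11 (2.25) and SMTN (0.95) were higher on day 11 than on day 9, and their sum was 121 to 174 CPM on day 9, 336, 552 and 280 CPM on day 11 and 276 to 364 CPM on day 20. Of 12 endoderm markers, which bear on OIT3, HHEX and F7, AFP (6.73) and SERPINA1 (5.79) were higher on day 11, and the list summed to 395 to 899 CPM on day 9, 1368, 825 and 2498 CPM on day 11 and 18085, 867 and 20026 CPM on day 20. Within day 11, OIT3, HHEX and F7 were each highest in replicate 2 in TPM, the library with the lowest of these sums. Replicate 2 was the highest in CPM for 42 of the 60 genes, so this order is not particular to them. Within day 20, OIT3 was lowest in replicate 2, where the sum was also lowest, while HHEX was lowest in replicate 3. That OIT3, HHEX and F7 were lower on day 20 than on day 11 was set by the rule. Of 12 endothelial markers, which bear on HHEX and MECOM, 0 passed on day 11 against day 9 in edgeR (7 at an unadjusted p under 0.05, and 4 in DESeq2), with sums of 232, 486 and 153 CPM on day 11. For the epithelial, mesenchymal, epicardial, neural and blood lists 0 genes passed in edgeR. At an unadjusted p under 0.05 there were 2, 5, 1, 0 and 1, and DESeq2 called 2, 3, 1, 0 and 1. The mesenchymal sum was 43133 CPM in day 20 replicate 3 against 6026 and 2258 CPM in the others. Skeletal muscle markers ACTA1 (4.11) and CKM (5.55) were higher on day 11 than on day 9, trophoblast TFAP2C (−1.69) lower, and of 7 pluripotency markers 4 were lower, led by TDGF1 (−3.68). The part of these cell types in the members' levels was not tested.

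The members were spread over the genome. Chromosome 10 held 9 of the 60 (15%) and 3.90% of the coding genes at the day 11 minimum, and chromosomes 19 and X held 0, against 7.12% and 3.42%. Some members were close neighbours. DOCK8 and KANK1 are adjacent on chromosome 9 of GRCh38 (214854 to 465259 and 470291 to 746105), 5032 bases apart on the same strand with no coding gene between. FGF8 (101770109 to 101780371) and KCNIP2 on chromosome 10 are 45603 bases apart with 2 coding genes between. NPY lies on chromosome 7 from 24284188 to 24291862, WNT2 on chromosome 7 from 117275451 to 117323152, and ACTA2 on chromosome 10 from 88935074 to 88991339.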

How the data were processed

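The authors aligned the paired-end reads (150 bases, TruSeq stranded total RNA) to GRCh38 with Ensembl 79 using STAR 2.5.2b and counted them per gene with featureCounts 1.5.1. The authors deposited raw counts per gene and, computed from them, TPM. The gene length behind the TPM and the strand setting are not given in the sources used here. The deposited sample table gives the RNA integrity number as a score and the uniquely mapped share as a fraction.

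The days came from the labels. Genes, coordinates and exon overlaps came from GENCODE v44 (also GRCh38), matched by Ensembl gene identifier for 46872 of 48777 genes. The 60 genes, the gene lists and the marker lists were chosen with earlier results of these data known, so a pattern among them is not independent support.

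Each comparison used the 6 libraries of 2 days in edgeR 4.0.16 (R 4.3.3; genes kept by filterByExpr at min.count 10 and min.total 15, TMM scaling, robust quasi-likelihood fit, two-sided test, Benjamini-Hochberg over all genes tested, threshold 0.05). The standard error is the log2 fold change over the square root of edgeR's F. Depth, between 11990302 and 33469703 counts, and the spread of 3 replicates set the precision. With 3 replicates per day, a permutation test cannot go below 0.1 and was not used. The scripts ran in Python 3.11.15 with pandas 2.3.3 and were tested on simulated data.

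Alternatives were DESeq2 1.42.0, limma 3.58.1 on log2 TPM after adding 1, upper-quartile and library-size scaling, other filters, all 15 libraries in 1 fit, the 20 most counted genes left out, plate and lane as blocks, and each replicate left out. Values in every library are given for the 20 best ranked genes and the members on the lists, and genes past the threshold in a comparison without day 11 are named. Of listed genes that are not members, at most 3 per list are named, those with the largest change past the threshold. Roles were assigned by hand. Some further members were given values in every library.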

Additional observations from a re-analysis of the deposited data

How the results depend on the processing

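Beside the values already given, the count of members past the threshold for day 20 against day 9 (5) was 8 with DESeq2, 8 with all 15 libraries in 1 fit, 3 with no filter on low counts, 1 with the lane as a block, and 0 in edgeR with the plate as a replicate block (7 at an unadjusted p under 0.05), and ranged from 0 to 8 with 1 replicate left out. The count for day 9 against day 4 (41) ranged from 35 to 40 with 1 replicate left out and from 34 to 41 under the other settings. The count for day 20 against day 0 (28) ranged from 18 to 37 with 1 replicate left out and was 23 to 37 otherwise. Listed genes past the threshold for day 11 against day 9 (46) were 95 with DESeq2, 28 with no filter and 101 with the plate as a replicate block, and 0 to 50 with 1 replicate left out. For day 20 against day 11 (16) they were 62 with DESeq2, 7 with the lane as a block, 0 in edgeR with the plate as a replicate block (92 at an unadjusted p under 0.05) and 0 to 24 with 1 replicate left out. In the fits with the plate as a block, plate 2_3 was counted as plate 2. The day 9 library without a plate label and the day 11 library of plate 5 each stood alone in a block. A library alone in its block adds nothing to the change between days. The counts with the plate as a block, 101 among them, therefore rest on fewer libraries than the main fits. The cause of these shifts was not tested.

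Deviations of each library from the mean of its day, in log CPM, were compared between libraries of the same plate or lane number. They correlated with either sign (−0.21 to 0.35 by plate, −0.43 to 0.30 by lane). Plate 2_3 was counted as plate 2 and gave 0.23 (days 20 and 9) and 0.01 (days 20 and 11). The other pairs of plate 2 ran from −0.21 to 0.10. Pairs of plate 6 were all positive: 0.30 for days 11 and 9, 0.35 for days 20 and 11, and 0.11 for days 20 and 9. The plate 6 libraries of days 11 and 9 also shared lane 2, so plate and lane cannot be told apart there. The main tests paired no samples, and these correlations do not settle whether plates should be paired. Of the 60 genes, 24 stayed in the top 60 when day means replaced the lowest and highest libraries, 48 with TMM library sizes, 56 with TPM, 56 with a minimum of 10 CPM, and 35 to 60 with 1 library left out. Under all 23 settings 19 of the 60 stayed. None of the member fold changes past the threshold changed sign under any setting tried. Of the 41 members past it for day 9 against day 4, 30 stayed past it in every setting that kept all libraries and tested them (9 settings, and 8 for ISX and OIT3), and 21 of 28 did in the 8 settings for day 20 against day 0. No member did so for day 20 against day 9 in all 10 settings: WNT2 passed in 9, KCNIP2 and OIT3 in 8, MVK in 6 and DOK6 in 4. For day 9 against day 4, FGF8 and SLC10A4 passed in 7 of 9 settings, PAOX and MMD in 6, HIF1A in 4 and ATG2A in 2. Depth limits genes with few counts, such as WNT2 and CYSLTR2 before day 11.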
